A study of Mus musculus with 10 samples.

Results

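Long intergenic noncoding RNAs (lincRNAs) were taken as the genes that the deposited annotation types as lincRNA and that held at least 20 total exon reads in each of the 10 libraries of inguinal white adipose tissue (iWAT). H19 and Meg3, which passed this minimum, and Rian and Mirg were left out as imprinted genes. The rule gave 104 lincRNAs of 4873 lincRNA rows (2.13%), among 51826 genes listed. The members were therefore chosen by their level, and a lincRNA that dropped below 20 reads in any mouse, whatever its level in the others, is not among them.

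Total RNA was sequenced after depletion of ribosomal RNA from iWAT, the subcutaneous fat depot of the groin, of male C57BL/6 mice. In the F0 generation, 2 males were fed a control diet (CD) and 2 a low-protein diet (LPD) from weaning and were taken at 10 to 12 weeks of age. In the F1 generation, the offspring of CD fathers (3 males) and of LPD fathers (3 males, pLPD offspring) were all fed CD and were taken at 5 weeks. The study asked what a low-protein diet changes in the fathers and what the fathers' diet changes in their offspring, and the 2 generations differ in age and in the set of libraries as well as in who ate the diet.

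LincRNAs are transcribed by RNA polymerase II from genes of their own, are capped and mostly spliced, and are not translated into long proteins. Some stay in the nucleus and build or recruit nuclear bodies, as Neat1 does for paraspeckles, some host small RNAs in their introns or exons, and many have no known role. Fat holds a few lincRNAs with a described part in adipocyte formation, among them Lncbate1, which is enriched in brown fat.

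Each library held 6351075 to 10044546 exon reads, and 3 reads corresponded to 0.300 to 0.468 CPM. CPM is a gene's exon reads scaled to a common total over all exon reads of a library, and values below are CPM on the normalised total, or CPM per kb of exon where genes are compared with each other. The adipocyte, immune, endothelial and progenitor markers were all detected, with summed adipocyte markers of 15547 to 22175 CPM. The share of reads on protein-coding genes that lay in introns was 48.4, 41.8 and 40.7% in the pLPD offspring, above the 36.0 to 37.5% of F1 CD and the 36.3 to 37.9% of F0, so that it separated the F1 diet groups. Uniquely mapped reads made up 86.1 to 87.4% of the exon reads of each library. Replicate 1 of the pLPD offspring held 182 reads of Xist, the lincRNA of X-chromosome silencing in females, against 31 and 34 in the other pLPD offspring and 0 to 17 elsewhere. Of the pLPD reads of Xist, 11, 2 and 3 were uniquely mapped. Tsix, which spans Xist on the opposite strand, held 0 to 2 exon reads in a library, and its part in the low unique share of Xist was not tested. The Y-linked genes Ddx3y and Kdm5d were present in all 10 libraries, at 716 to 1016 and 269 to 493 reads. Xist was not among the 104 lincRNAs.

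At the edge of the rule, 10 lincRNAs had their lowest library at exactly 20 reads, among them Gm26613, Epb41l4aos and 4930412M03Rik. Another 5 had it at 19 and stayed outside, of which Gm43291, Gm26823 and Gm26624 had the highest means, at 40.3, 34.0 and 31.6 reads.

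How uniquely the reads mapped split the 104 lincRNAs into contrasting sets. Uniquely mapped reads are those that the deposited counts give as unique. How these treat a read that lies in 2 overlapping genes is not given in the sources used here. Gm20388, a protein-coding entry whose span holds other genes, had 0 unique reads among its 4678 exon reads. Rcc1, Nampt and Zfhx3, each of which a lincRNA of the 104 overlaps, had 100% unique exon reads. A low share may stand for overlap of genes or for several places in the genome, which were not told apart. Over 90% of the exon reads were unique for 49 lincRNAs, 10 to 90% for 14, and under 10% for 41. Only 54 of the 104 would have reached 20 reads in each library by uniquely mapped reads alone. Of the 41 lincRNAs under 10%, 31 overlapped a protein-coding gene, 24 of them on the opposite strand, whereas 7 of the 49 lincRNAs over 90% overlapped one. Spliced reads were also scarce in that set, with a median of 0.0722 exon-exon reads per 100 exon reads, against 3.86 in the set over 90%. The members under 10% had a median of 2 exons, and those over 90% had 5. In the same range of mean reads (32.7 to 730.3), 40.2% of 92 lincRNAs and 2.88% of 9224 protein-coding genes had under 10% of their reads uniquely mapped.

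**Figure D1:**
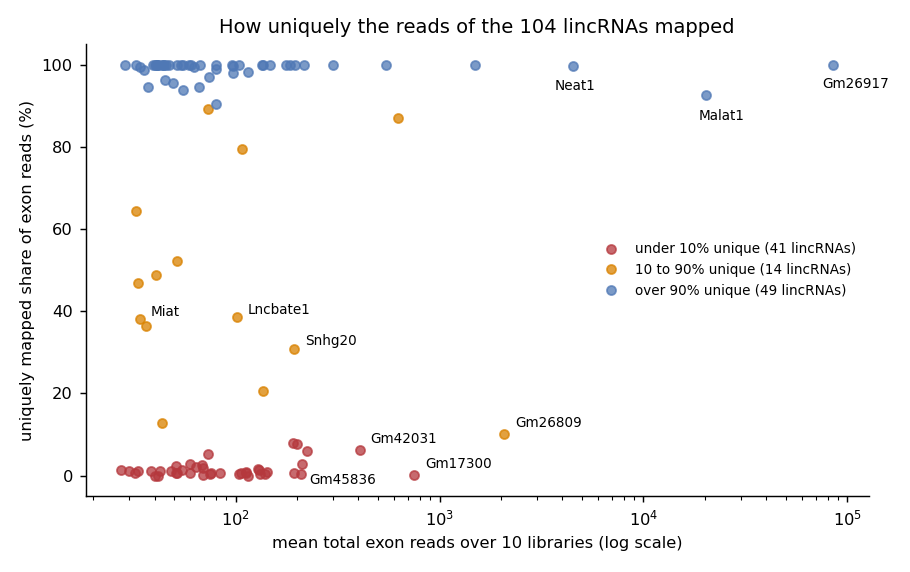
Share of exon reads that mapped uniquely (percent, y axis) against the mean total exon reads over the 10 libraries (log scale, x axis); each point is 1 of the 104 lincRNAs, coloured by its share. The points gather near 0% (41 lincRNAs) and near 100% (49 lincRNAs), with 14 between them.

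Sequence shared with another gene was found for part of the low set. Windows of 36 bases, the read length, were compared between all annotated transcripts on both strands, and over 10% of a lincRNA's windows lay in another gene for 21 of the 41 members under 10% and for 10 of the 49 over 90%. For 20 of the 41, neither shared windows nor exons of another gene covered more than 10% of the transcript. Overlap with the introns of another gene, as that of Gm26603 with Fmnl2, was not counted in this. Why the reads of these 20 were not counted as unique was not tested. Gm17300, the fifth most abundant lincRNA per length, is shown because it runs against Snhg3, a host transcript of small nucleolar RNAs. Exons of opposite-strand genes, Snhg3 among them, covered 62.6% of the exon bases of Gm17300, and 40.8% of its windows lay in Snhg3. Of the 7493 exon reads of Gm17300, 0.200% were uniquely mapped. The stretch below lies at chr4:132351903-132352022 (mm10, + strand, GENCODE vM21), with the 90 bases whose windows all lie in Snhg3, on the opposite strand, in capitals.
Gm17300: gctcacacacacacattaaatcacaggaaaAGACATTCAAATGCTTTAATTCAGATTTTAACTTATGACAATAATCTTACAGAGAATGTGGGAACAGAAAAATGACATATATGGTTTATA

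Members also shared windows with each other in 8 pairs. Gm45836 and AC153370.2 shared 1960 windows, Gm26880 and Gm42031 shared 473, CT009718.1 and CT009718.4 shared 337, and Gm12840 and Gm26809 shared 332. Reads of such pairs can be divided between them by the counting, so their values are uncertain and they are not independent genes.

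A few genes stood far above the other lincRNAs in level. Per length, Gm26917 (12543), Malat1 (1352) and Neat1 (189) led, followed by Gm26809 (86.2), Gm17300 (62.7), C330006A16Rik (31.0), AW112010 (29.7) and Snhg20 (29.5 CPM per kb of exon, means over the 10 libraries). The median lincRNA stood at 3.66 CPM per kb, protein-coding genes that met the same minimum at 7.82, and the lowest member was Miat at 0.455. Together the 104 lincRNAs took 1.01 to 2.05% of the exon reads of a library, and without the leading 3 they took 0.161 to 0.195%. Malat1 was the steadiest member between mice of a group, with a within-group SD of 0.0468 on the log2 scale, and Gm26825 the most variable (0.668). The median SD was 0.220 for the lincRNAs and 0.156 for protein-coding genes with similar reads.

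**Figure D2:**
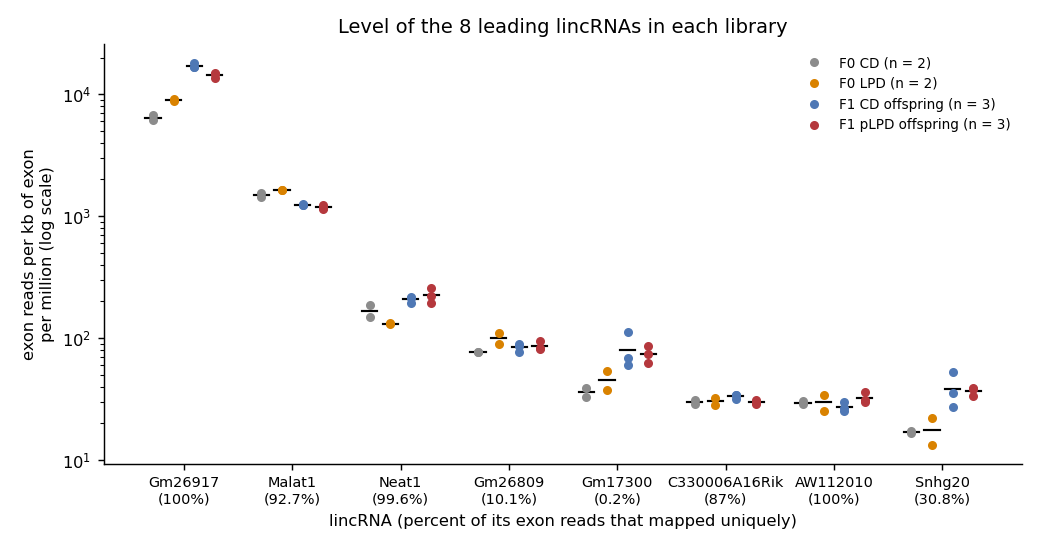
CPM per kb of exon (log scale, y axis) of the 8 leading lincRNAs in each of the 10 libraries; points are libraries coloured by group, short lines are group means, and the percentage under each name is its uniquely mapped share. Gm26917, Neat1, Gm17300 and Snhg20 are higher in all 6 F1 libraries than in the 4 F0 libraries, and Malat1 is lower.

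Gm26917 lies at a ribosomal DNA locus on chromosome 17 (chr17:39843013-39846341). It held 5589 ± 366 CPM in F0 CD (SD, n = 2), 7831 ± 243 in F0 LPD (n = 2), 14848 ± 717 in F1 CD (n = 3) and 12538 ± 650 in pLPD offspring (n = 3). All of its reads were uniquely mapped, and no group overlapped another. The neighbouring entries of that locus, Gm42418 and AY036118, were listed at 0 in all libraries, so ribosomal RNA left after depletion could not be read from them, and its part in the level of Gm26917 was not tested.

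Malat1, a nuclear speckle RNA, held 25279 and 26422 exon reads in F0 CD, 28432 and 25941 in F0 LPD, 16793, 19437 and 17075 in F1 CD, and 14785, 15801 and 13367 in pLPD offspring. In CPM the F0 groups were at 2734 ± 135 and 3011 ± 33.1 and the F1 groups at 2270 ± 23.0 and 2163 ± 91.9. Neat1, the RNA scaffold of paraspeckles, was at 505.2 ± 80.3 in F0 CD, 395.0 ± 3.81 in F0 LPD, 622.4 ± 39.3 in F1 CD and 673.6 ± 93.5 CPM in pLPD offspring. For both, the files' exon length is far below that of the gene in GENCODE, with 1834 of 6983 bases for Malat1 and 3004 of 20771 for Neat1. In all, the exon length equalled the joined length of GENCODE's multi-exon transcripts for 91 of the 104 lincRNAs and that of all transcripts for 85. That of Gm26917 equalled the former alone, 869 of 3329 bases, and those of Malat1 and Neat1 equalled neither. Exon reads were 21.4% of the gene reads of Malat1 and 62.2% of those of Neat1.

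The other leading members were at lower levels. C330006A16Rik, which RefSeq lists as protein-coding, was at 74.0 to 82.9 CPM in the group means, and AW112010, an inflammation-induced transcript, at 21.0 to 24.9. Gm26809, with 10.1% uniquely mapped reads, ranged from 229.1 ± 1.62 CPM in F0 CD to 297.5 ± 42.8 in F0 LPD. Gm17300 held 54.8 ± 6.49 CPM in F0 CD and 122.5 ± 41.5 in F1 CD, and Snhg3, against which it runs, held 13 to 25 reads in F0 and 34 to 75 in F1.

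In the F1 generation, no lincRNA of the 104 passed the threshold for the fathers' diet. Each diet comparison was fitted with edgeR's quasi-likelihood test over all genes, with Benjamini-Hochberg adjusted p under 0.05 as the threshold, and 164 of 14049 genes passed in F1 (1.17%). At an unadjusted p under 0.05, 15 of the 104 lincRNAs stood out, which is 14.4% beside 15.3% of all genes. Of these, 13 were higher and 2 lower in pLPD offspring, where 6.57% and 8.76% of all genes were. DESeq2 called 0 as well. The log2 fold changes ran from -0.60 to 0.86, and 93 of the 104 lay within 0.5 of zero.

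More lincRNAs lay above zero than below it in F1. The median log2 fold change was 0.12, beside 0.01 over all genes, and 76 of the 104 were positive (73.1%), beside 51.4% of all genes. The median was 0.17 in the set under 10% uniquely mapped and 0.12 in the set over 90%. It was 0.04 in a fit that also held each library's exonic fraction as a term, and 0.07 on reads over the whole gene. The intron share of protein-coding genes, given above, was higher in each pLPD library than in each F1 CD library, so intron share and the fathers' diet cannot be told apart here. Without pLPD replicate 1, which had the highest intron share, the median was 0.11, with the other pLPD libraries still above F1 CD in that share. In a similar range of reads, 92 of the lincRNAs had a median of 0.14 (73.9% positive) and antisense genes one of 0.12 (58.6%). Genes typed as processed transcripts had one of 0.09 (62.3%) and protein-coding genes one of 0.00 (50.9%). The groups of mice did not overlap for 20 of the 104 (15 higher and 5 lower in pLPD offspring), beside 20.1% of all genes.

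The members with the largest F1 changes were thus values below the threshold. Gm454 held 27, 39 and 28 reads in F1 CD and 45, 37 and 63 in pLPD offspring, a log2 fold change of 0.86 ± 0.29 (SE; adjusted p = 0.184). The groups overlapped in raw reads but not in CPM. AC126459.2 stood at 0.72 ± 0.27, 2610016A17Rik at 0.65 ± 0.21, Mirt1, named for its induction after myocardial infarction, at 0.61 ± 0.20, and Gm44386 at 0.60 ± 0.24, with adjusted p of 0.171 to 0.252. On the other side, Miat, also named from myocardial infarction, held 47, 54 and 39 reads in F1 CD and 27, 29 and 23 in pLPD offspring, a change of -0.60 ± 0.25 (adjusted p = 0.279). Its groups did not overlap, and 38.1% of its reads were uniquely mapped. Gm38399 was at -0.52 ± 0.25, AC159809.2 at -0.52 ± 0.20, CT009718.1 at -0.50 ± 0.25 and Snhg6 at -0.40 ± 0.24. Several of these moved with the processing. With the exonic fraction as a term, Mirt1 was at 0.06 (adjusted p = 0.973), Snhg6 at -0.22 and Gm38399 at -1.15. On reads over the whole gene, Mirt1 was at 0.37, CT009718.1 at -0.20 and Snhg6 at -0.21. The smallest adjusted p of the 104 was that of Lncbate1 (0.143). An exact permutation test of a single lincRNA in 3 against 3 mice cannot go below p = 0.1.

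Macrophage markers were lower in pLPD offspring, with summed levels of 671.2 to 755.7 CPM against 952.4 to 1167 in F1 CD, and 4 of 6 fell past the threshold. Summed epithelial markers were at 2.14 to 5.15 against 11.7 to 16.4 CPM, with Krt8 and Krt18 past the threshold. No lincRNA passed beside them, and their part in the values above was not tested. No other marker list had a gene past the threshold in F1, but endothelial (median -0.36) and progenitor markers (-0.33) were negative in 6 of 6 genes each, with 3 and 5 at an unadjusted p under 0.05, and B and T cell markers (0.26) were positive in 10 of 10, with 5. In bulk tissue, fewer cells of a type and less RNA per cell cannot be told apart.

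In the F0 generation, 1 of the 104 lincRNAs passed the threshold for diet (0.962%), beside 364 of 14581 genes (2.5%, and 1.32% lower). Gm42031, a lincRNA of unknown role at chr8:85125872-85132289 (- strand), held 721 and 661 reads in F0 CD and 488 and 433 in F0 LPD. It fell by 0.52 on the log2 scale (SE 0.11, adjusted p = 0.0463), from 73.4 ± 10.4 to 51.0 ± 0.439 CPM, and the F1 groups stood at 39.9 ± 2.36 and 40.6 ± 4.10 CPM. The F0 groups did not overlap, which held for 46.5% of all genes with 2 against 2 mice. Of its reads, 6.10% were uniquely mapped, 50 and 45 in F0 CD and 25 and 35 in F0 LPD, and 72.0% of its windows lay in other genes. On uniquely mapped reads its change was -0.59 (adjusted p = 0.372). The adjusted p rose to 0.0716 in DESeq2 and to 0.0555 in a fit of all 4 groups, and to 0.145, 0.116 and 0.196 without F0 CD replicate 1, F0 LPD replicate 1 or F0 LPD replicate 2. It was 0.0211 without F0 CD replicate 2, 0.0389 on reads over the whole gene and 6.6e-05 without a filter. Its nearest protein-coding gene, Zfp791, 2777 bases away, held 5 to 17 reads in each F0 and F1 library.

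The other large F0 changes were below the threshold. Gm26880, which shares sequence with Gm42031, held 99 and 123 reads in F0 CD and 66 and 66 in F0 LPD, a change of -0.68 ± 0.18 (adjusted p = 0.0939), with a single uniquely mapped read in all. Lncbate1 was at -0.67 ± 0.22, Gm16907 at -0.64 ± 0.23, Miat at -0.61 ± 0.34 and Gm454 at -0.59 ± 0.25. Higher in F0 LPD were 2610035D17Rik (0.69 ± 0.28), Gm5627 (0.58 ± 0.28), Gm26917 (0.49 ± 0.17), Gm26857 (0.46 ± 0.14) and Mirt1 (0.45 ± 0.21), with adjusted p of 0.131 to 0.362. DESeq2 called Gm26917 (adjusted p = 0.00320) and not Gm42031. At an unadjusted p under 0.05 there were 15 of the 104 lincRNAs, or 14.4% beside 15.7% of all genes, with 4 higher and 11 lower, where 7.53% and 8.2% of all genes were. The median change of the 104 was -0.00293, beside 0.000352 over all genes, and 51 were positive (49.0%, beside 50.1%). The groups did not overlap for 43 of the 104 (41.3%, beside 46.5% of all genes). On reads over the whole gene, 2610035D17Rik was at 0.13 (adjusted p = 0.521) and Gm454 at -0.38. Neat1 was at -0.35 ± 0.13 on exon reads (adjusted p = 0.210) and at -0.05 on reads over the whole gene (adjusted p = 0.890).

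Skeletal muscle markers were lower in the F0 LPD libraries, with summed levels of 662.3 and 910.3 CPM against 1412 and 2165, and 6 of 8 fell past the threshold. The F1 libraries held 37.3 to 152.1 CPM of them. Past the threshold in the other lists, 1 of 10 B and T cell markers rose, and 1 of 6 macrophage and 1 of 6 progenitor markers fell. The part of muscle RNA and of these cells in the F0 values of the lincRNAs was not tested.

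**Figure D3:**
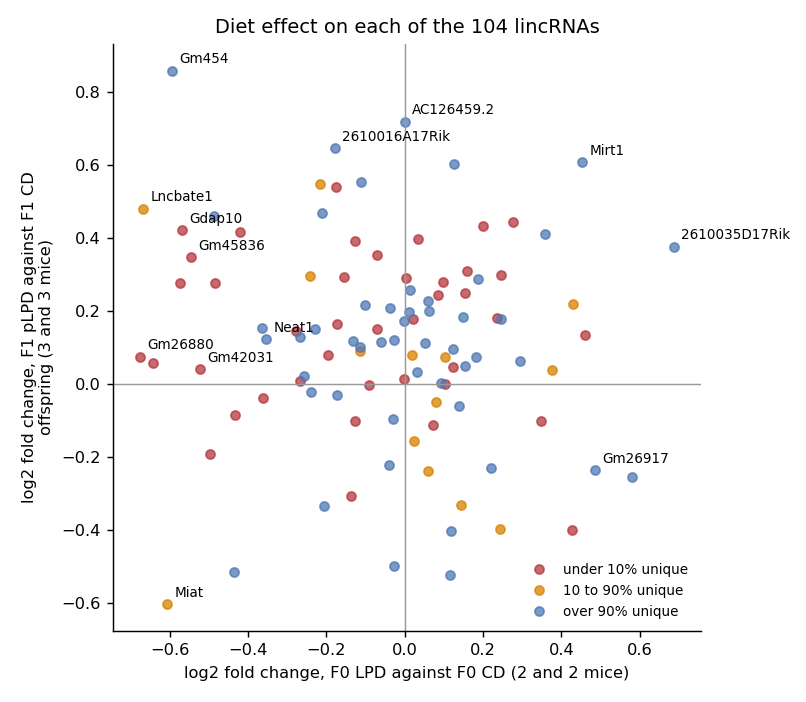
Log2 fold change of each of the 104 lincRNAs for the fathers' diet in F1 (y axis, 3 against 3 mice) against that for diet in F0 (x axis, 2 against 2 mice), coloured by the uniquely mapped share. Values run from -0.68 to 0.69 in F0 and from -0.60 to 0.86 in F1, with more points above than below the horizontal line (76 of 104) and 51 of 104 to the right of the vertical line.

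The diet effect differed between the generations past the threshold for 1 of the 104 lincRNAs, beside 189 of 15111 genes (1.25%), in the interaction of generation and diet. Gm45836 (chr8:121833247-121841178, + strand), a lincRNA within the span of the gene Gm20388, held 241 and 250 reads in F0 CD, 189 and 133 in F0 LPD, 201, 228 and 191 in F1 CD, and 235, 234 and 209 in pLPD offspring. It was lower under the diet in F0 (26.0 ± 1.42 against 17.7 ± 3.04 CPM; -0.55 ± 0.15, adjusted p = 0.0974) and higher in pLPD offspring (26.4 ± 0.719 against 33.4 ± 2.25 CPM; 0.35 ± 0.11, adjusted p = 0.147). The difference of the changes was 0.89 ± 0.18 on the log2 scale (adjusted p = 0.0306). The adjusted p was 0.0597 to 0.166 in 6 of the 10 fits that left out 1 mouse (F0 CD replicate 1 or 2, F0 LPD replicate 2, F1 CD replicate 1 or 2, or pLPD replicate 2). In both generations the groups did not overlap. Only 2.70% of its reads were uniquely mapped, 2 to 15 in a library, too few to be tested, and 79.0% of its windows lay in other genes.

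Another 3 lincRNAs came close to the threshold and were picked for description after their values were seen. Lncbate1 held 99 and 80 reads in F0 CD, 59 and 49 in F0 LPD, 96, 113 and 122 in F1 CD, and 122, 141 and 135 in pLPD offspring, and the difference of the changes was 1.14 ± 0.26 (adjusted p = 0.0510). It lies within Zfhx3 on the opposite strand, shared no window with another gene, and 38.5% of its reads were uniquely mapped. Gdap10 lies within Nampt, the gene of an NAD-synthesis enzyme, on the same strand, and differed by 0.98 ± 0.22 (adjusted p = 0.0510). Its changes of -0.57 in F0 and 0.42 in F1 stood beside -0.48 and 0.40 for Nampt, all below the threshold, and 0.476% of the reads of Gdap10 were uniquely mapped. Gm26917 went the other way, with a difference of -0.73 ± 0.17 (adjusted p = 0.0578). DESeq2 called these 3 and Gm45836. On uniquely mapped reads 66 of the 104 could be tested, not Gm45836, and 0 were called.

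**Figure D4:**
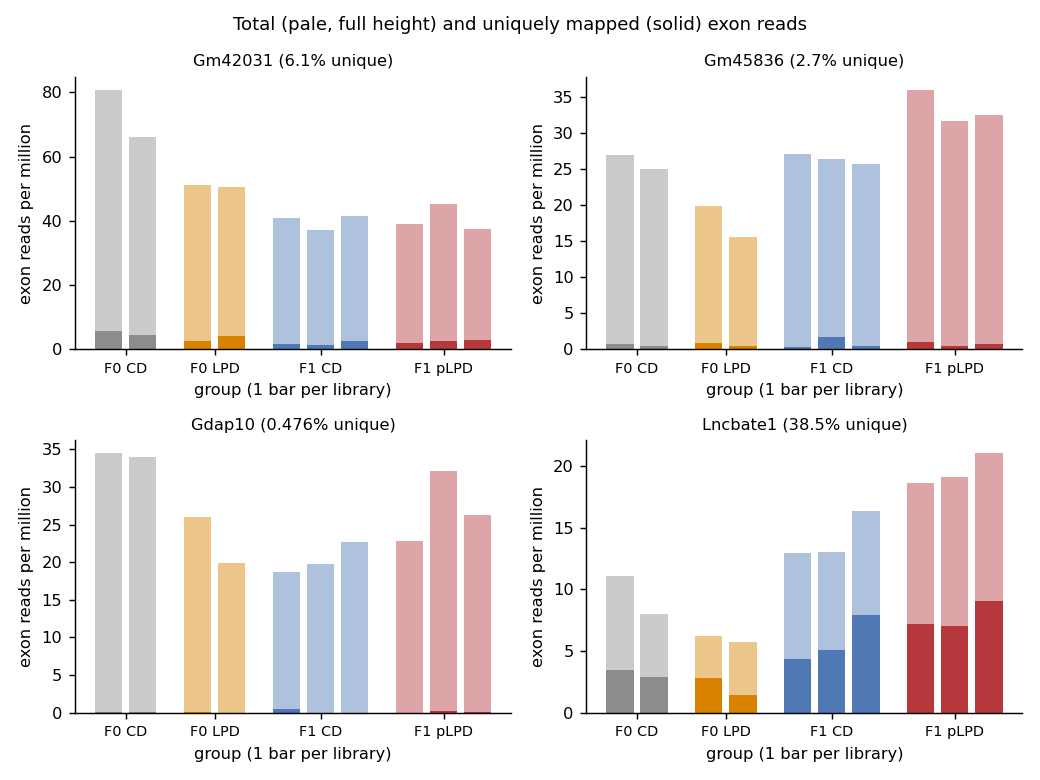
Exon reads in CPM (y axis, from 0) of Gm42031, Gm45836, Gdap10 and Lncbate1, with 1 bar per library coloured by group; the full bar is all exon reads and its solid foot the uniquely mapped ones. The solid part is small in the first 3 genes (6.10, 2.70 and 0.476%) and 38.5% in Lncbate1.

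Grouped by role, no lincRNA list held a gene past the threshold in either generation. Of the nuclear body and chromatin lincRNAs, 4 of 9 were members (Malat1, Neat1, Miat and Ftx, a transcript of the X-inactivation centre), and the list's median change was 0.13 in F1 and 0.06 in F0. Ftx held 58 to 144 reads in a library and changed by 0.23 ± 0.22 in F1. Of the cytoplasmic regulatory lincRNAs, 1700020I14Rik (Cyrano), which directs the decay of a microRNA, held 161.9 ± 7.79, 172.5 ± 9.40, 199.4 ± 20.4 and 198.7 ± 18.2 CPM in F0 CD, F0 LPD, F1 CD and pLPD offspring, with diet changes of 0.00 ± 0.10 in F1 and 0.09 ± 0.09 in F0. The list also held Lncpint, a p53-induced transcript that acts in the nucleus, with 26.9 ± 2.54, 26.4 ± 1.92, 18.6 ± 3.12 and 17.3 ± 1.60 CPM in the same order. Neither differed between diets beyond its spread.

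Host transcripts of small RNAs gave 6 members, Snhg6, Snhg12, Snhg18, Snhg20, Epb41l4aos and Mir17hg, and the list's median change was 0.07 in F1 and 0.07 in F0. Mir17hg (chr14:115042879-115046727) carries the miR-17/92 cluster, which is known for its role in cell proliferation. It held 40 and 49 reads in F0 CD, 62 and 47 in F0 LPD, 33, 32 and 49 in F1 CD, and 47, 54 and 31 in pLPD offspring, with changes of 0.36 ± 0.23 and 0.41 ± 0.29. The libraries count the host and not its mature products, which are given here to show what the transcript encodes, as RefSeq lists them, with bases 2 to 8, the seed, in capitals. miR-17-5p and miR-20a-5p share a seed, as do miR-19a-3p and miR-19b-3p.
mmu-miR-17-5p: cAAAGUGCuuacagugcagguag
mmu-miR-20a-5p: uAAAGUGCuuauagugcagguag
mmu-miR-18a-5p: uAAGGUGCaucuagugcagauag
mmu-miR-19a-3p: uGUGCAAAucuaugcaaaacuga
mmu-miR-19b-3p: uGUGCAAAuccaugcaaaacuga
mmu-miR-92a-3p: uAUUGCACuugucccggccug

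Of the developmental and adipose lincRNAs on the list, Pvt1, the neighbour of Myc, and Carmn, a smooth muscle and cardiac lincRNA, were members. Pvt1 held 35 to 57 reads in a library and changed by 0.12 ± 0.23 in F1 and -0.03 ± 0.26 in F0. Carmn held 84 to 211 reads and changed by -0.02 ± 0.16 and -0.24 ± 0.15. The structured RNAs of RNA-protein enzymes, such as Terc and Rmrp, had no exon length in the deposited tables. They were therefore all listed at 0 exon reads, which does not show whether they were present.

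Proteins that bind or turn over nuclear RNAs did not pass the threshold either. All 13 paraspeckle proteins were positive in F1 (median 0.12), as were 12 of 13 nuclear speckle proteins (0.10) and 11 of 12 nuclear RNA decay proteins (0.14), beside 51.4% of all genes. In F0 the medians were -0.06, -0.06 and -0.04. The numbers at an unadjusted p under 0.05 were 3, 2 and 0 in F1 and 0, 1 and 0 in F0.

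The protein-coding neighbours of the lincRNAs passed the threshold at about the background share. Of 84 lincRNAs with a tested neighbour in F1, 1 had a called one (1.19%, beside 1.17% of all genes), Gpi1, a glycolytic enzyme that Gm26762 overlaps on the opposite strand (-0.69 for Gpi1, adjusted p = 0.0114, and -0.31 for Gm26762). In F0 it was 3 of 86 (3.49%, beside 2.5%), none of them overlapping: Fam46a near AC159809.2 (-0.75), Cited2 near AC153370.2 (-1.40) and Ehhadh near 1300002E11Rik (0.57). Of the 104 lincRNAs, 43 overlapped a protein-coding gene, 35 lay within 10 kb of one and 26 lay farther away. Over the lincRNAs with a tested neighbour that they overlapped, Pearson's r of the log2 fold changes was 0.281 in F1 (n = 36) and 0.463 in F0 (n = 37). For neighbours apart it was 0.312 (n = 48) and 0.104 (n = 49). These are correlations across genes, which share the libraries and, where genes overlap, may share reads.

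Between the generations, 33 of the 104 lincRNAs differed past the threshold (31.7%), beside 4906 of 15111 genes (32.5%). Of these lincRNAs, 18 were higher and 15 lower in F1, where 16.4% and 16.1% of all genes were. Generation, age and set of libraries cannot be told apart here. Summed skeletal muscle markers were at 662.3 to 2165 CPM in F0 and 37.3 to 152.1 in F1, and their part in these differences was not tested. Lncbate1 was 1.14 ± 0.13 higher in F1 on the log2 scale (adjusted p = 4.3e-05) and Gm26917 1.04 ± 0.09 higher (4.1e-06). Neat1 was 0.54 ± 0.09 higher (0.000791). Lower in F1 were AC133083.2 (-0.79 ± 0.16), Lppos, which runs against Lpp (-0.67 ± 0.19), Lncpint (-0.57 ± 0.10), Snhg18 (-0.53 ± 0.13), Dubr, a lincRNA of muscle differentiation (-0.50 ± 0.10), 1810058I24Rik, which RefSeq lists as protein-coding (-0.40 ± 0.08), and Malat1 (-0.37 ± 0.07). The F1 and F0 mice did not overlap in 10 lincRNAs that were higher in F1 and 13 that were lower, 22.1% beside 20.1% of all genes.

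Counting mattered for several of these. Of the 33, 21 could be tested on uniquely mapped reads, and 18 passed again, including all 16 with over 90% unique reads. Snhg20 was 1.12 ± 0.18 higher in F1 on all exon reads (adjusted p = 0.000479) but not on uniquely mapped ones (-0.05, adjusted p = 0.840). Its uniquely mapped share was 43.8 to 58.4% in the F0 libraries and 19.5 to 29.3% in the F1 libraries. On reads over the whole gene, 28 of the 33 passed again. Malat1 did not, at -0.11 (adjusted p = 0.339), while Neat1 did, at 0.42 (adjusted p = 0.00253). AC133083.2 turned to 0.62 (adjusted p = 0.105). DESeq2 called 28 lincRNAs.

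**Figure D5:**
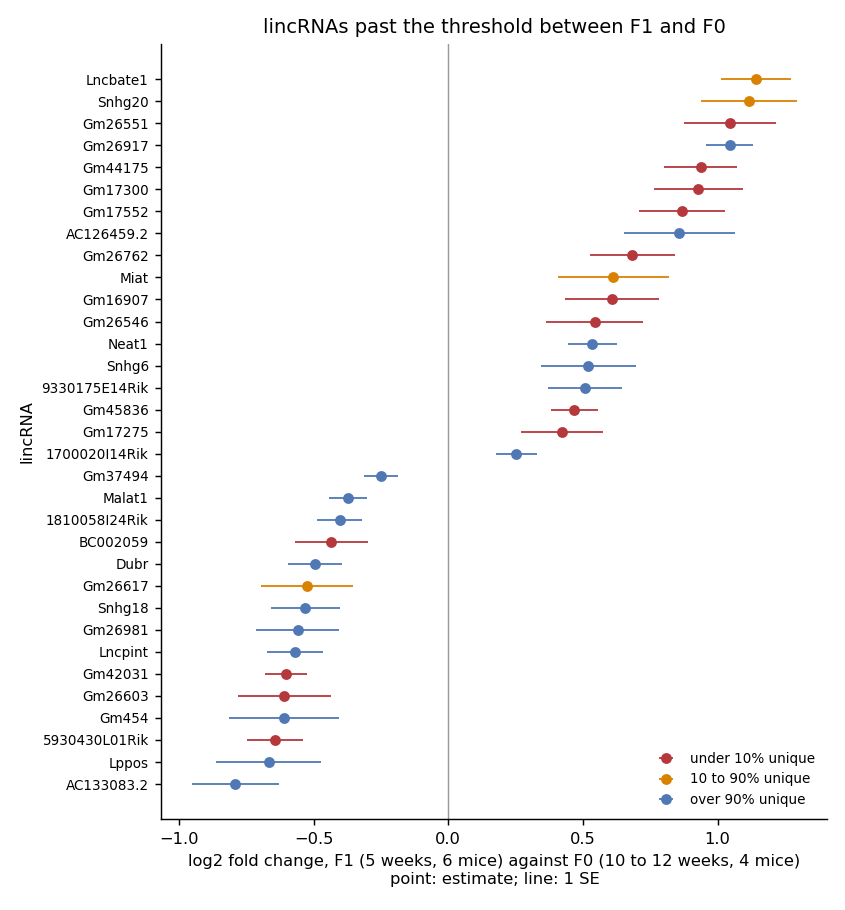
Log2 fold change of F1 (6 mice) against F0 (4 mice), x axis, for the 33 lincRNAs past the threshold, y axis, with lines for 1 SE and colours for the uniquely mapped share. Points to the right are higher in F1 (18 lincRNAs, 9 of them under 10% unique) and points to the left lower (15 lincRNAs, 10 of them over 90% unique).

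LincRNAs without an exon length in the deposited tables, 283 of the 4873, hold no exon reads and could not be members. By reads over the whole gene, 16 of them held at least 20 reads in each library. Of these, 0 passed the threshold in F1, where 0.749% of 16154 genes did in that fit, and 1 passed in F0, where 1.72% of 16934 genes did.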

How the data were processed

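Per the labels, total RNA of iWAT was depleted of ribosomal RNA and made into strand-specific libraries read as pairs of 36 bases. The authors mapped reads to mm10 and counted them in CLC Genomics Workbench; the annotation release and the strand setting of the counting are not given in the sources used here. The deposited tables hold raw counts per gene of total and unique exon, gene, intron and exon-exon reads, and the authors' RPKM and TPM values, which were only inspected.

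Total exon reads were tested here with edgeR 4.0.16 (filterByExpr, TMM, quasi-likelihood F test, Benjamini-Hochberg over all genes tested) in each generation alone, and in all 10 libraries for the interaction and for F1 against F0, the latter chosen after the data were seen. DESeq2 1.42.0, unique reads, whole-gene reads, other filters and each mouse left out were alternatives. In simulated data on 13872 genes (F1) and 14412 genes (F0), 84.4% and 78.6% of genes changed by 1 on the log2 scale were recovered. False calls made up 3.28% and 6.95% of the calls. The simulation gave all genes of a generation the same spread. The lincRNAs varied more between mice than protein-coding genes of similar reads (median SD 0.220 against 0.156), so these shares are not those of the lincRNAs. A rule named the lincRNAs past a threshold, the 5 largest changes in each direction and generation, the 8 highest levels, list members and the edges. Members and lists were chosen with earlier results of these data known. The F1 mice came from different mothers; the p-values measure the spread between these mice. All given lincRNAs were placed in GENCODE vM21 (GRCm38), and 59 of 104 matched in RefSeq. Counting error alone sets the floor of 3 reads.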

Additional observations from a re-analysis of the deposited data

Results flagged for a closer look

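The diet effect on Gm45836 differed between F1 and F0 in a test of the difference itself, by 0.89 on the log2 scale (SE 0.18, adjusted p = 0.0306 by edgeR), with reads that were 2.70% uniquely mapped. The adjusted p was 0.0597 to 0.166 in 6 of the 10 fits that left out 1 mouse.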

How the results depend on the processing

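In F1, 0 lincRNAs passed under 12 of 13 alternative settings and with each of 6 mice left out. When membership needed only a mean of 20 reads, 1 passed (2310069B03Rik). Over all genes, the alternative settings called from 11 of 14049, with the exonic fraction as a term, to 798 of 22256, without a filter. With a mouse left out, 18 of 14284 to 510 of 14322 genes were called. In F0 the count of 1, beside 364 of 14581 genes, became 9 without a filter, beside 1343 of 22064 genes. It was 7 with the replicate block, which fits more terms to the same 4 libraries, beside 1391 of 14581 genes. Gm42031 was then at an edgeR adjusted p of 2.7e-05. The F0 count was 0 on unique reads, where 66 of the 104 could be tested, beside 394 of 13421 genes. It was also 0 in the fit of all 4 groups, beside 175 of 15111 genes. With a mouse left out, the F0 change of Gm42031 ran from -0.66 to -0.37. The interaction count of 1 became 4 in DESeq2, beside 353 of 15111 genes, and 3 with the replicate block, beside 267 of 15111. With an F1 mouse left out it ran from 0 to 3. It was 0 on unique reads, where 66 of the 104 and not Gm45836 could be tested. The count was 0 without F0 CD replicate 1 or 2, F0 LPD replicate 2, F1 CD replicate 1 or 2, or pLPD replicate 2. The count of 33 between F1 and F0, beside 4906 of 15111 genes, was 18 on unique reads, beside 4706 of 13785 genes. Only 66 of the 104 could be tested on unique reads. The count was 21 to 34 with a mouse left out, the lowest without F0 CD replicate 2 or F0 LPD replicate 2. Those fits called 3185 of 15506 and 3368 of 15549 genes, and the fit without pLPD replicate 3, with the highest count, called 4776 of 15126. The F1 median of 0.12 was 0.0365 with the exonic fraction as a term, 0.0707 on whole-gene reads and 0.11 to 0.15 with a mouse left out. The F0 median ran from -0.0883, without F0 LPD replicate 1, to 0.0196. These causes were not tested. Of the named changes, the 2 past the threshold (Gm42031 and Gm45836) lost it in 12 of 25 alternatives. The other 20 passed in 6 of 286, and 22 of the 286 values, of 11 changes, moved by over 1.5 times, the largest drop being that of Mirt1 in F1. With 1 mouse left out, Miat in F0 ranged from -0.91 to -0.19 and Gm5627 from 0.23 to 0.87. The sign changed in 0 of these.

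Samples of the same replicate number did not deviate together (correlations of 0.0718, 0.00100 and 0.0175 in F1 and 0.0599 in F0), so the numbers were not used to pair mice. Recovery of changes under 1 on the log2 scale was not simulated.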

Other observations

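Of the 16 lincRNAs that have no exon length in the deposited tables but at least 20 reads over the whole gene in each library, the one with the most reads is 2900097C17Rik (Norad, chr2:156388065-156392979, - strand), a cytoplasmic RNA that binds Pumilio proteins. In a fit of gene reads chosen after the data were seen, it was the only one of the 16 past the threshold, and fell by 1.01 on the log2 scale in F0 LPD (SE 0.08, edgeR adjusted p = 0.00823), with 1989 and 2390 reads in F0 CD and 1120 and 939 in F0 LPD. Leaving out F0 LPD replicate 2 gave an adjusted p of 0.0672. The change was not in the uniquely mapped reads, which numbered 983 and 1169 in F0 CD and 1120 and 939 in F0 LPD (log2 fold change 0.02, adjusted p = 0.949). The F0 LPD libraries thus held no read of Norad outside the unique count, and the F0 CD libraries about as many such reads as unique ones. In F1 the total reads were 1730, 2187 and 1027 in F1 CD and 1690, 1039 and 1677 in pLPD offspring. The unique reads were 1026, 1196 and 1018, and 955, 1033 and 968, so that 2 of the 6 libraries, 1 in each group, held almost no others. Of 13411 genes with at least 20 gene reads in each library, Norad was the only one whose uniquely mapped share was over 10 percentage points higher in all of these 4 libraries than in all of the other 6, and 0 genes showed the reverse. Among the 41 lincRNAs with under 10% uniquely mapped reads, the share was 2.42 to 2.77% in F0 CD and 2.32 to 2.63% in F0 LPD. The F1 change was 0.06 (adjusted p = 0.941).

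Among the lincRNAs that the rule left out, 1 of 168 tested passed the threshold in F1, beside 1.17% of all genes. In F0 it was 1 of 206, beside 2.5% of all genes. Both were picked here after their values were seen. 2310069B03Rik held 53, 44 and 56 reads in F1 CD and 15, 6 and 11 in pLPD offspring, all uniquely mapped, a change of -2.03 ± 0.37 (adjusted p = 0.0313). It held 7 and 4 reads in F0 CD and 17 and 12 in F0 LPD, and its diet effect differed between the generations by -3.47 ± 0.67 (adjusted p = 0.0287). AC153945.1 held 1 and 1 reads in F0 CD and 13 and 14 in F0 LPD (adjusted p = 0.0320), and 0 or 1 in each F1 library. The log2 fold change of Xist in pLPD offspring was 3.86 (adjusted p = 0.0628).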
